A study of Mus musculus with 16 samples.

Results

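ATF4 pathway genes were followed through all 16 libraries of a mouse leukemia cell line series: 34 genes of the amino acid stress response, out of 50686 genes counted. The members were listed by name, from textbook knowledge of the pathway and with earlier results of these data known. The list was proposed because, in wild-type line 1, these genes ran opposite to wild-type lines 2 to 4 when Senexin B was added. The differences with Senexin B within the wild-type lines are therefore given as a description. Their counts of calls stand beside the share over all genes, with nothing read from them. The comparisons of genotypes in DMSO and with Senexin B use the same wild-type libraries, so neither is independent of the choice. All 34 members had a symbol match. A filter on low counts kept 33 of them in each comparison. Cbs, with 1 to 18 counts per library, was tested only in the alternative fits without this filter.

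The cells were BCR-ABL1p185+ lines made from bone marrow of C57BL/6N mice and transformed with a retrovirus that carries BCR-ABL1p185 and GFP, so every group, controls included, carries this oncogene. There were 4 lines labelled wild type (Cdk8 fl/fl) and 4 Cdk8 Δ/Δ lines (deleted with Vav-Cre, a Cre active in blood cells), and each line stood for 1 culture with 0.01% DMSO and 1 with 1 µM Senexin B, an inhibitor of the kinases CDK8 and CDK19, both for 48 h. This gave 4 groups of 4 libraries. The labels give no age of the mice. The controls have both Cdk8 alleles flanked by loxP sites.

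ATF4 is a transcription factor whose messenger RNA is translated more when eIF2 is phosphorylated, which happens when amino acids run short, in endoplasmic reticulum stress, with haem shortage or in viral infection. It then binds, often with a C/EBP partner, to response elements in genes for amino acid synthesis and transport, tRNA charging, one-carbon metabolism and stress signalling. Part of its control is at translation and is not seen in RNA counts. In B-lineage cells, as in other dividing cells, the pathway is known for supplying asparagine, serine and cystine when these are limiting.

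The C/EBP-ATF response element was searched for in the members' promoters as TGATGNAA on both strands, in RefSeq windows (GRCm38.p6, 250 bases before to 50 bases after each gene start), to show which members carry these letters close to their start. A window was given for 29 of the 34 members, and 8 of these 29 genes (27.6%) held a match, against 4.51% of the 27025 genes in the whole table (1219 genes). A match describes the letters and is not a binding site shown by these data. The 8 genes were Atf3, Chac1, Trib3, Slc7a11, Asns, Nupr1, Pck2 and Vldlr. The sequences are on the strand of the gene, 5′ to 3′, with the match in capitals.
Atf3: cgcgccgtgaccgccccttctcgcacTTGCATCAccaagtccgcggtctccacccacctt
Nupr1: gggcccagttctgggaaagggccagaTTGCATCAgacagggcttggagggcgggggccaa
Chac1: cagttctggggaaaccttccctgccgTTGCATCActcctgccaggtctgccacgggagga
Trib3: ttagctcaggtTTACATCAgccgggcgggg
Asns: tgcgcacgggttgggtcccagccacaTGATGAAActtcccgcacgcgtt
Pck2: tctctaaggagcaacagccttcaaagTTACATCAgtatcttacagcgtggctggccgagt
Slc7a11: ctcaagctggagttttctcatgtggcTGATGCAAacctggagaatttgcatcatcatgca
Slc7a11, other match: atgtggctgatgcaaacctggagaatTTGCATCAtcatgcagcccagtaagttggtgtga
Vldlr: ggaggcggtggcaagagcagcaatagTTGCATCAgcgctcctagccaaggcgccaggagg

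The printed stretches lie at chr1:191183410-191183469 (Atf3, - strand), chr7:126625547-126625606 (Nupr1, - strand), chr2:119351023-119351082 (Chac1, + strand), chr2:152344028-152344057 (Trib3, - strand), chr6:7693210-7693258 (Asns, - strand), chr14:55540137-55540196 (Pck2, + strand), chr3:50443646-50443705 and chr3:50443627-50443686 (Slc7a11, - strand) and chr19:27216794-27216853 (Vldlr, + strand). In 7 of the 8 genes the match lay upstream of the RefSeq start, and in Trib3 it began at base 15 of the transcribed side. Asns and the upstream Slc7a11 match have the motif in the sense direction, and the other 7 matches have its reverse complement. Slc7a11 was the gene with a pair of matches, in opposite directions and 66 and 47 bases before its start. A RefSeq start can differ from the start of the span counted here. The Atf3, Nupr1, Asns and Vldlr matches lie within the counted span of their gene, and the Trib3 match lies upstream of it. No match was found in the windows of Atf4, Ddit3, Psat1, Phgdh or Slc7a1, among others, which says only that these letters are not in those 300 bases.

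Library totals ran from 13145876 to 18349425 counts, and TMM-normalized counts per 1000000 counts of a library (CPM) were used for levels, with the 4 values of a group given in the order of lines 1 to 4. Markers of pro-B and pre-B cells were present in every library (10 of 10 above 10 CPM on average, summed level 5354 to 8397 CPM), whereas the 5 T-cell markers summed to at most 0.347 CPM and the 4 stromal markers to at most 0.313 CPM, with Cd3g, Elane, S100a8 and Pdgfra at 0 in all libraries. Myeloid markers summed to 0.441 to 24.8 CPM, highest in the Cdk8 Δ/Δ line 1 DMSO library, and the 4 erythroid markers summed to at most 1.49 CPM. The 5 mature B and plasma cell markers summed to 48.8 to 281 CPM, with ranges that overlapped between all groups. Cdk8 itself was counted at 61.8 to 68.7 CPM in wild-type DMSO and at 35.3 to 52.1 CPM in Cdk8 Δ/Δ DMSO, and with Senexin B at 55.2 to 89.4 CPM and 41.2 to 61.7 CPM, where the genotypes overlapped. This gene total includes reads outside the deleted part. In bulk RNA, fewer cells of a type and less RNA per cell cannot be told apart.

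Before the members are described, 2 lines need to be named. The wild-type line 1 DMSO library had the lowest median level of the members in its group (-0.31, as log2(CPM + 1) minus each gene's mean over the 16 libraries, against 0.71, 0.80 and 0.74 in lines 2 to 4), and the wild-type line 1 Senexin B library had the highest of all 16 (0.85). The file of the wild-type line 1 DMSO library was also the 1 of 16 whose header does not name the folder that the other 15 share. Cdk8 Δ/Δ line 4 had the lowest medians of all 16 libraries, with DMSO (-0.91) as well as with Senexin B (-0.83), and all 33 tested members were below their own mean in its DMSO library. The mitochondrial share of counts was higher with Senexin B in all 4 wild-type lines, line 1 included (7.92% and 10.4%). In the Cdk8 Δ/Δ lines it went from 8.86% to 8.32% in line 1, from 8.37% to 12.3% in line 2, from 8.81% to 7.42% in line 3 and from 7.30% to 7.79% in line 4. The part of header, mitochondrial share and marker levels in the results was not tested.

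**Figure D1:**
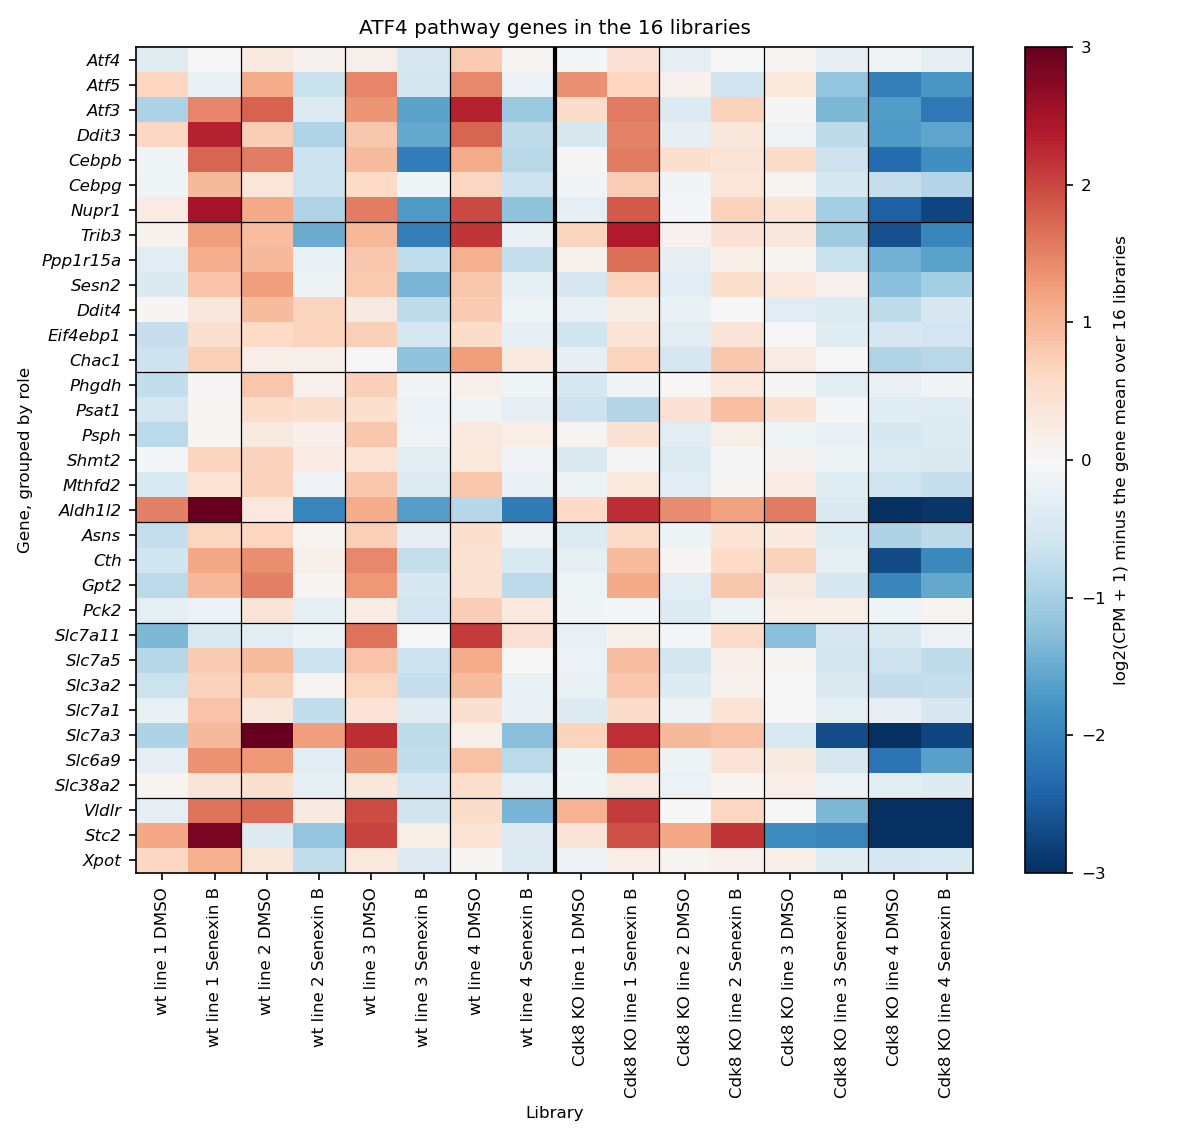
Heat map of the 33 tested members (rows, grouped by role) in the 16 libraries (columns, DMSO and Senexin B of each line side by side). Colour is log2(CPM + 1) minus the gene's mean over all libraries, drawn at the limit beyond ±3; KO is Cdk8 Δ/Δ. In wild-type line 1 the Senexin B column is the redder of its pair, in wild-type lines 2 to 4 the DMSO column, and both columns of KO line 4 are blue.

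Per kilobase of exon, Atf4 was the most abundant member (391 CPM per kilobase, mean of 16 libraries), followed by Slc7a5 (288), Shmt2 (254) and Asns (218). At the other end were Aldh1l2 (4.65), Vldlr (3.26), Slc7a11 (0.245) and Cbs (0.102). Atf4 was also the least variable of the tested members. On the log2(CPM + 1) scale, the SD over the 16 libraries was 0.33 for Atf4 and 1.96 for Aldh1l2 and Slc7a3, the pair with the widest spread.

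Atf4 (ENSMUSG00000042406, chr15:80255184-80257540, + strand of GRCm38, the build of all gene positions here), the factor that names the pathway, was at 510.5, 805, 735 and 1138 CPM in wild-type DMSO and at 652, 705, 459.7 and 698 CPM with Senexin B. In the Cdk8 Δ/Δ lines it was at 643, 534, 670.3 and 601 CPM with DMSO and 895, 650.4, 550.2 and 543 CPM with Senexin B. The groups overlapped throughout, and the 16 values stayed within 2.48-fold of each other. In wild-type line 1 the Senexin B library was 1.28 times the DMSO library (95% Clopper-Pearson interval 1.24 to 1.32, counting error of 2 libraries only) and in line 3 it was 0.626 times (0.609 to 0.643).

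Ddit3, which encodes CHOP, a transcription factor of prolonged stress (ENSMUSG00000025408, chr10:127290774-127296288, + strand), was at 162, 175, 184 and 354 CPM in wild-type DMSO and at 528, 55.8, 35.8 and 61.4 CPM with Senexin B. The Cdk8 Δ/Δ lines held 75.3, 88.96, 98.3 and 31.9 CPM with DMSO and 299, 134, 60.7 and 34.7 CPM with Senexin B. With DMSO every Cdk8 Δ/Δ line was below every wild-type line. Line 1 of each genotype had the highest level of its group with Senexin B. The log2 fold change of Cdk8 Δ/Δ over wild type in DMSO was -1.57 ± 0.39 (SE), with an adjusted p of 0.897 by the quasi-likelihood test of edgeR, so it did not pass. DESeq2 called it, at an adjusted p of 0.0312.

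Atf3, a stress-induced factor, was at 13.9, 97.3, 70.9 and 141 CPM in wild-type DMSO and 78.2, 20.9, 8.57 and 12.3 CPM with Senexin B, and at 41.3, 20.9, 28.5 and 8.03 CPM (DMSO) and 84.02, 45.6, 10.3 and 5.57 CPM (Senexin B) in the Cdk8 Δ/Δ lines. Wild-type line 1 was far below the other wild-type DMSO libraries. Nupr1, a small stress-induced nuclear protein, was at 49.4, 92.3, 122 and 167 CPM in wild-type DMSO and 235, 21.9, 12.2 and 17.3 CPM with Senexin B. Its Cdk8 Δ/Δ values were 35.1, 40.1, 55.9 and 6.77 CPM with DMSO and 151, 68.00, 20.1 and 5.30 CPM with Senexin B, and line 4 was lowest in both. Cebpg, a C/EBP partner of ATF4, was at 45.7, 65.6, 76.8 and 79.1 CPM in wild-type DMSO, 99.6, 32.2, 46.4 and 32.6 CPM in wild-type Senexin B, 47.5, 47.4, 53.5 and 30.7 CPM in Cdk8 Δ/Δ DMSO and 85.4, 65.7, 34.96 and 27.03 CPM in Cdk8 Δ/Δ Senexin B. For all 3 genes the DMSO groups overlapped through wild-type line 1. Cebpb, another C/EBP factor, ranged from 0.221 to 19.3 CPM, with only 3 counts in the lowest library (Cdk8 Δ/Δ line 4 DMSO).

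Atf5, a factor closely related to ATF4, was the exception among the members. It was at 135, 186, 237 and 232 CPM in wild-type DMSO and at 74.8, 53.6, 58.4 and 75.5 CPM with Senexin B, and was the member that was lower with Senexin B in all 4 wild-type lines, line 1 included. The 4 wild-type Senexin B libraries were all below the 4 DMSO libraries. This was seen for 170 of 12989 genes (1.31%), and Atf5 belongs to the contrast that chose the list, so it is singled out here after its values were seen. In the Cdk8 Δ/Δ lines it was at 223, 94.04, 106 and 19.96 CPM with DMSO and 134, 55.9, 37.4 and 24.8 CPM with Senexin B. It was lower with Senexin B in lines 1 to 3 and higher in line 4, whose level was the lowest of the group with either treatment. The fitted log2 fold change with Senexin B was -1.58 ± 0.22 in the wild-type lines (SE, n = 4 lines) and -0.82 ± 0.73 in the Cdk8 Δ/Δ lines, a difference of 0.77 ± 0.80 between the genotypes. With the lines paired by a replicate block these were -1.56 ± 0.21, -0.69 ± 0.25 and 0.89 ± 0.36.

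**Figure D2:**
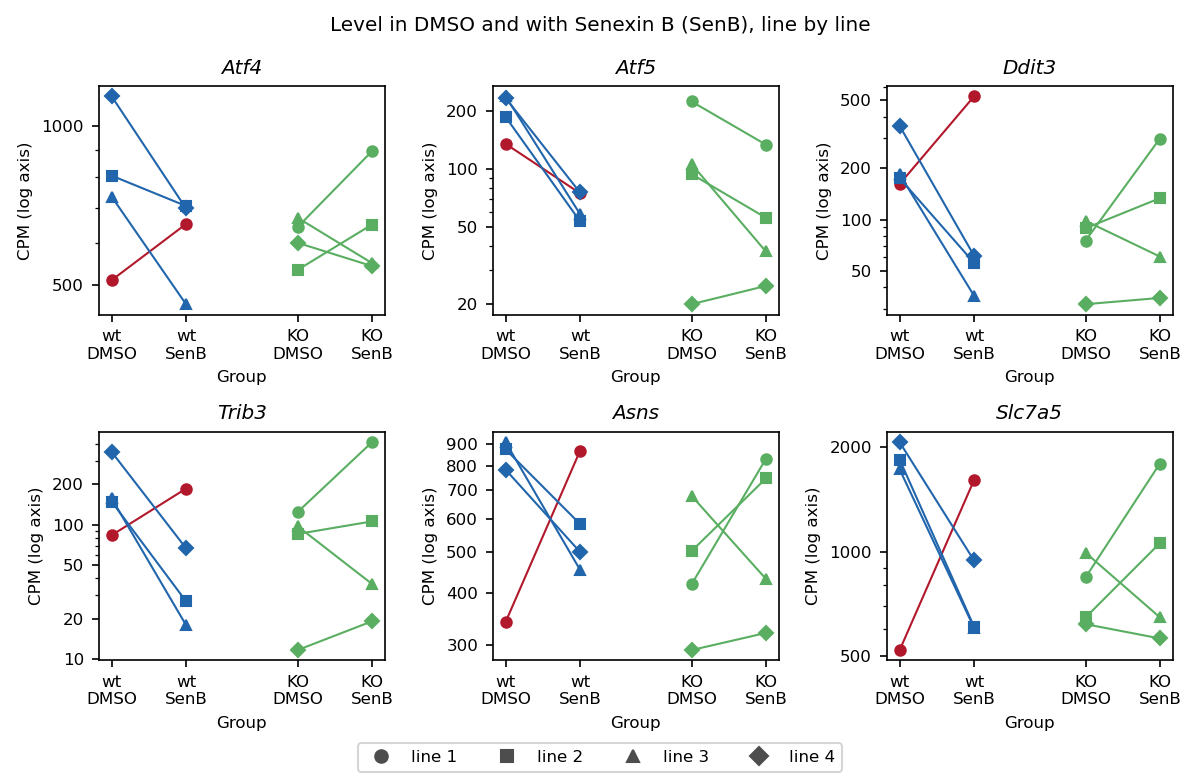
CPM (log axis) of 6 members in each library, with both libraries of a line joined; marker shape gives the line, red is wild-type line 1, blue wild-type lines 2 to 4 and green the Cdk8 Δ/Δ (KO) lines. Atf5 declines in all 4 wild-type lines, whereas the red line runs upward against the blue lines in the other 5 genes.

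Among the regulators, Trib3, a pseudokinase that restrains ATF4 in a feedback loop (ENSMUSG00000032715, chr2:152337422-152344032, - strand), was at 83.8, 149, 157 and 348 CPM in wild-type DMSO and 186, 27.01, 17.99 and 67.04 CPM with Senexin B. In the Cdk8 Δ/Δ lines it was at 124, 85.5, 97.8 and 11.7 CPM with DMSO and 411, 106, 36.4 and 19.2 CPM with Senexin B. Its highest value was in Cdk8 Δ/Δ line 1 with Senexin B and its lowest in line 4 of the same genotype with DMSO, a 35.1-fold range. Chac1, which degrades glutathione (chr2:119351229-119354381, + strand), was at 23.2, 41.5, 36.04 and 87.1 CPM in wild-type DMSO and at 59.4, 41.1, 14.99 and 44.3 CPM with Senexin B. Its values in the Cdk8 Δ/Δ lines were 30.1, 24.9, 42.9 and 18.8 CPM with DMSO and 57.6, 63.6, 36.1 and 19.9 CPM with Senexin B. All 4 groups of Chac1 overlapped, and wild-type line 2 differed by only -0.01 on the log2 scale between treatments.

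Ddit4, which restrains mTORC1, was at 70.4, 133, 83.03 and 116 CPM in wild-type DMSO and at 58.9, 59.7, 54.05 and 39.8 CPM in Cdk8 Δ/Δ DMSO. Together with Ddit3 it was the member whose DMSO groups did not overlap, with all Cdk8 Δ/Δ lines lower. This held for 219 of the 13174 genes tested (1.66%). With Senexin B it was at 86.7, 109.7, 39.7 and 62.2 CPM in the wild-type lines and 79.9, 69.4, 51.7 and 48.8 CPM in the Cdk8 Δ/Δ lines, and these groups overlapped. The log2 fold change in DMSO was -0.92 ± 0.23 (edgeR, adjusted p = 0.897), and DESeq2 gave an adjusted p of 0.0858.

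Ppp1r15a, which directs a phosphatase to eIF2 (GADD34), was at 44.6, 109, 97.4 and 117 CPM in wild-type DMSO, 118, 47.96, 32.7 and 33.3 CPM in wild-type Senexin B, 60.5, 46.4, 58.05 and 19.7 CPM in Cdk8 Δ/Δ DMSO and 177, 63.05, 34.7 and 17.6 CPM in Cdk8 Δ/Δ Senexin B. Sesn2, a leucine sensor upstream of mTORC1, was at 49.4, 162, 116 and 118 CPM in wild-type DMSO, 122, 60.7, 25.6 and 55.96 CPM in wild-type Senexin B, 46.9, 53.00, 84.7 and 27.7 CPM in Cdk8 Δ/Δ DMSO and 107, 97.8, 73.1 and 32.5 CPM in Cdk8 Δ/Δ Senexin B. Both had 3 high wild-type DMSO libraries and a line 1 library within the Cdk8 Δ/Δ range. Eif4ebp1, a repressor of cap-dependent translation, was at 208, 511, 551 and 491 CPM in wild-type DMSO, 468, 535, 237 and 283 CPM in wild-type Senexin B, 222, 267, 334 and 235 CPM in Cdk8 Δ/Δ DMSO and 444, 437, 259 and 224 CPM in Cdk8 Δ/Δ Senexin B. Its wild-type line 1 DMSO library was the lowest of all 16.

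The serine and one-carbon enzymes had the smallest median differences between treatments in each wild-type line. Phgdh, the first enzyme of the route (chr3:98313170-98339990, - strand), was at 49.2, 149, 137 and 92.1 CPM in wild-type DMSO and 86.1, 91.6, 79.03 and 76.6 CPM with Senexin B, and at 57.96, 82.9, 84.9 and 71.9 CPM (DMSO) and 79.4, 104, 65.9 and 77.2 CPM (Senexin B) in the Cdk8 Δ/Δ lines. Psat1, the next enzyme (chr19:15904678-15947337, - strand), was at 238, 494, 472 and 306 CPM in wild-type DMSO and 348, 469, 298 and 281 CPM with Senexin B, and at 217, 453, 453 and 261 CPM (DMSO) and 183, 626, 329 and 261 CPM (Senexin B) in the Cdk8 Δ/Δ lines. Psat1 was the member that followed the others least: its correlation with the median of the other members was 0.32 over the 16 libraries, a description over libraries that share lines, and it was lower with Senexin B in Cdk8 Δ/Δ line 1, where 31 of 33 members were higher. Psph, the last enzyme of the route, ranged from 40.9 to 128 CPM.

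Shmt2, which passes carbon from serine to mitochondrial folate, was at 737, 1230.5, 1023 and 948 CPM in wild-type DMSO, 1211, 904, 607 and 709 CPM in wild-type Senexin B, 555, 571, 819 and 579 CPM in Cdk8 Δ/Δ DMSO and 747, 744, 687 and 566 CPM in Cdk8 Δ/Δ Senexin B. Only Cdk8 Δ/Δ line 3 reached into the wild-type DMSO range. Mthfd2, the following mitochondrial enzyme, was at 177, 389, 421 and 435 CPM in wild-type DMSO, 319, 224, 186 and 206 CPM in wild-type Senexin B, 219, 191, 280.2 and 158 CPM in Cdk8 Δ/Δ DMSO and 301, 249.7, 189 and 150.3 CPM in Cdk8 Δ/Δ Senexin B. Here the overlap came from the low wild-type line 1. Aldh1l2, a mitochondrial enzyme that oxidises formyl-tetrahydrofolate, was at 48.6, 20.8, 36.7 and 8.68 CPM in wild-type DMSO and 177, 3.52, 4.55 and 3.08 CPM with Senexin B, and at 25.5, 45.9, 50.7 and 0.663 CPM (DMSO) and 79.9, 39.2, 11.9 and 1.32 CPM (Senexin B) in the Cdk8 Δ/Δ lines. It had the largest range of all members, 267-fold, between wild-type line 1 with Senexin B and Cdk8 Δ/Δ line 4 with DMSO (9 counts). Its log2 fold change of genotype in DMSO was 0.10 ± 0.95, so it had no settled direction. A replicate block gave -0.51 ± 0.81, but the line numbers do not pair lines across genotypes.

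Asns, asparagine synthetase (ENSMUSG00000029752, chr6:7675169-7693254, - strand), was at 341, 875, 910.0 and 783 CPM in wild-type DMSO and 868, 582, 453 and 499.9 CPM with Senexin B. In the Cdk8 Δ/Δ lines it was at 419, 502, 679 and 292 CPM with DMSO and 831, 747, 431 and 321 CPM with Senexin B. In wild-type line 1 the Senexin B library was 2.55 times the DMSO library (2.47 to 2.63), and in line 3 it was 0.498 times (0.485 to 0.512). Wild-type DMSO and Cdk8 Δ/Δ DMSO overlapped through wild-type line 1, and the genotype log2 fold change was -0.62 ± 0.35 (edgeR, adjusted p = 0.908). Cth, which makes cysteine from cystathionine, ranged from 26.3 to 479 CPM and Gpt2, the mitochondrial alanine aminotransferase, from 25.8 to 296 CPM, both lowest in Cdk8 Δ/Δ line 4 with DMSO. Pck2, mitochondrial phosphoenolpyruvate carboxykinase, ranged from 262 to 649 CPM. Cbs, which makes cystathionine, stayed between 0.0626 to 1.12 CPM.

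Of the transporters, Slc7a5, the large neutral amino acid carrier, was at 521, 1839, 1724 and 2063 CPM in wild-type DMSO and 1605, 609, 604 and 944 CPM with Senexin B, and at 843, 647, 994 and 619 CPM (DMSO) and 1792, 1058, 648 and 563 CPM (Senexin B) in the Cdk8 Δ/Δ lines. Slc3a2, the heavy chain with which it pairs, was at 303, 778, 739 and 913 CPM in wild-type DMSO and 766, 502, 294 and 414 CPM with Senexin B, and at 415, 364, 481 and 284 CPM (DMSO) and 841, 518, 353 and 295 CPM (Senexin B) in the Cdk8 Δ/Δ lines. For both, wild-type lines 2 to 4 were above all Cdk8 Δ/Δ lines with DMSO and line 1 was within or below their range. Slc38a2, a sodium-coupled carrier of neutral amino acids, was at 882, 1165, 1055 and 1194 CPM in wild-type DMSO, 1086, 681, 588 and 687 CPM in wild-type Senexin B, 767, 739, 954 and 664 CPM in Cdk8 Δ/Δ DMSO and 1004, 871, 743 and 637 CPM in Cdk8 Δ/Δ Senexin B. Cdk8 Δ/Δ line 3 was the library that overlapped the wild-type range in DMSO.

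Slc7a1, a carrier of arginine and lysine, was at 348, 520.4, 545 and 574 CPM in wild-type DMSO, 745, 244, 317 and 355 CPM in wild-type Senexin B, 309.9, 365, 413 and 346 CPM in Cdk8 Δ/Δ DMSO and 598, 539, 335 and 294 CPM in Cdk8 Δ/Δ Senexin B. Slc7a3, another carrier of this kind, was at 32.5, 634, 296 and 71.4 CPM in wild-type DMSO, 124, 151, 37.00 and 25.8 CPM in wild-type Senexin B, 101, 124, 45.6 and 3.61 CPM in Cdk8 Δ/Δ DMSO and 293, 116, 9.10 and 8.50 CPM in Cdk8 Δ/Δ Senexin B. The lines of 1 group differed far more in Slc7a3 than in Slc7a1. Slc6a9, a glycine carrier, was at 36.1, 110.2, 115 and 81.8 CPM in wild-type DMSO, 115, 35.3, 25.97 and 24.7 CPM in wild-type Senexin B, 39.7, 39.8, 53.98 and 8.76 CPM in Cdk8 Δ/Δ DMSO and 106, 59.7, 31.6 and 13.7 CPM in Cdk8 Δ/Δ Senexin B, again lowest in Cdk8 Δ/Δ line 4. Slc7a11, the cystine carrier, ranged from 0.405 to 14.2 CPM with 7 to 203 counts and was the member that was higher with Senexin B in all 4 Cdk8 Δ/Δ lines, a pattern seen in 8.68% of 14164 genes.

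Vldlr, a lipoprotein receptor, was at 16.6, 67.8, 82.4 and 30.1 CPM in wild-type DMSO and 65.1, 24.8, 13.1 and 7.08 CPM with Senexin B, and at 42.9, 20.7, 20.6 and 1.47 CPM (DMSO) and 91.1, 32.7, 7.34 and 1.39 CPM (Senexin B) in the Cdk8 Δ/Δ lines. Stc2, a secreted glycoprotein, was at 43.1, 14.04, 80.1 and 25.2 CPM in wild-type DMSO and 142, 7.86, 21.4 and 14.2 CPM with Senexin B, and at 24.6, 43.2, 4.38 and 1.25 CPM (DMSO) and 74.7, 85.8, 4.01 and 0.975 CPM (Senexin B) in the Cdk8 Δ/Δ lines. Both were near 1 CPM in Cdk8 Δ/Δ line 4 with either treatment, and Stc2 was also low in line 3. Xpot, the exportin for tRNA, was at 507, 428, 414 and 343 CPM in wild-type DMSO and 702, 199.6, 255 and 253 CPM with Senexin B, and at 296, 349, 378 and 233 CPM (DMSO) and 380.0, 365, 257 and 241 CPM (Senexin B) in the Cdk8 Δ/Δ lines. For Xpot, wild-type line 1 was the highest of all DMSO libraries.

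With DMSO, the members were lower in the Cdk8 Δ/Δ lines on the whole, without any of them passing the edgeR test. The wild-type DMSO libraries are part of the contrast that chose the members, so this direction may in part follow from the choice. The counts for this comparison are therefore a description. Of the 33 tested, 32 had a log2 fold change below 0, against 49.7% of the 13174 genes tested, with a median of -0.83 (all genes, 0.00) and a range from -1.98 to 0.10. The member above 0 was Aldh1l2, and no member was above 0 without Cdk8 Δ/Δ line 2 or 3 or wild-type line 4. With edgeR, 0 members were called at an adjusted p under 0.05 and a change over 2-fold (background 0.00759%, 1 gene). At an unadjusted p under 0.05 there were 16 members, all lower, where 5.32% of all genes passed. These were Ddit4, Ddit3, Shmt2, Slc38a2, Nupr1, Slc7a1, Cebpg, Sesn2, Slc3a2, Slc7a5, Mthfd2, Ppp1r15a, Eif4ebp1, Atf3, Xpot and Slc6a9, each with an adjusted p of 0.897. By role they were 4 of 7 transcription factors, 4 of 6 regulators, 2 of 6 serine and one-carbon enzymes, 5 of 7 transporters and 1 of the 3 others, and 0 of the 4 other enzymes tested. DESeq2 called 1 member, Ddit3 (background 0.116%), with 18 at an unadjusted p under 0.05 (background 3.67%). It was run without the low-count filter used for edgeR, on 27542 genes and 34 members. Its adjusted p also used its own filter on mean counts, so its backgrounds are not comparable with those of edgeR.

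The largest of these log2 fold changes was that of Atf3, at -1.71 ± 0.69, followed by Nupr1 at -1.64 ± 0.59. The smallest SE belonged to abundant members such as Slc38a2 (-0.46 ± 0.16) and Shmt2 (-0.64 ± 0.20). Atf4 itself was at -0.38 ± 0.23, with an edgeR adjusted p of 0.908. Leaving out wild-type line 1 gave 23 members at an unadjusted p under 0.05 (background 10.6%), a median of -1.06 and again 0 called. The count was 8 without Cdk8 Δ/Δ line 1 (background 6.21%), 8 without line 2 (4.52%) and 6 without line 4 (4.41%), and it was 5 without wild-type line 2 (3.59%), line 3 (3.99%) or line 4 (4.97%).

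With Senexin B in both genotypes, the members did not lean to either side. Their median log2 fold change of Cdk8 Δ/Δ over wild type was 0.03, with 19 above and 14 below 0, and edgeR called 0 members (background 0%, 0 genes) with 0 at an unadjusted p under 0.05 (background 1.55%). DESeq2 likewise gave 0 and 0 (backgrounds 0.0358% and 1.61%). Trib3 had the largest value, 0.95 ± 1.04, and Aldh1l2 the lowest, -0.50 ± 1.52, so that the SE exceeded the difference in both. The direction depended on single lines: the median was 0.48 without wild-type line 1 and -0.31 without Cdk8 Δ/Δ line 1. The 2 genotype comparisons come from different libraries of the same lines. Both use wild-type libraries of the contrast that chose the members, so nothing is read from the difference between their medians.

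**Figure D3:**
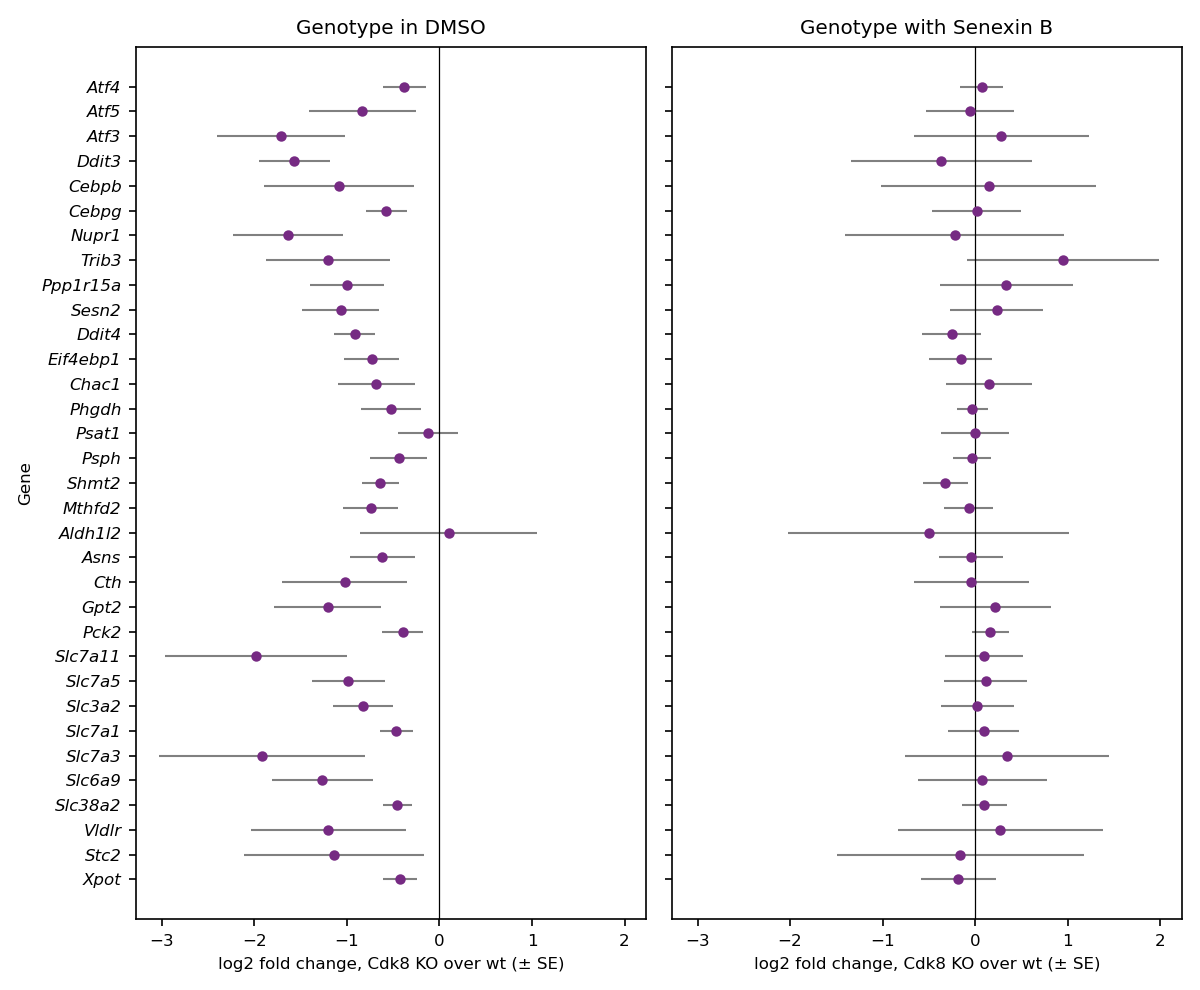
Log2 fold change (± SE) of each tested member in Cdk8 Δ/Δ (KO) over wild-type lines, with DMSO (left) and with Senexin B (right), 4 lines per group. With DMSO 32 of 33 points lie left of 0, and with Senexin B 19 lie right and 14 left of it.

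Within the wild-type lines, the difference between the Senexin B and the DMSO library of a line is what the list was proposed on, so the values and counts describe the choice. In wild-type line 1, 32 of 33 members were higher with Senexin B (47.4% of all genes), 21 of them over 2-fold (1.72% of all genes), and the median difference was 1.29 on the log2(CPM + 1) scale. In line 2, 31 were lower and 18 of them over 2-fold (2.1% of all genes), with a median of -1.09. In lines 3 and 4 all 33 were lower, 23 and 18 of them over 2-fold (1.69% and 2.94% of all genes), with medians of -1.51 and -1.07. The full pattern of line 1 higher and lines 2 to 4 lower was met by 30 of 33 members and by 12.5% of the 14164 genes. The opposite pattern was met by no member and by 12.9% of genes. For comparison, 9.12% of genes were lower and 8.3% higher in all 4 wild-type lines.

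The members outside the pattern were Atf5, lower in every line, and Eif4ebp1 and Slc7a11, which were slightly higher in line 2 (0.07 and 0.18). The widest swings belonged to Atf3, with differences of 2.41, -2.17, -2.91 and -3.42 in lines 1 to 4, and Nupr1, with 2.23, -2.03, -3.22 and -3.20. Trib3 differed by 1.14, -2.42, -3.06 and -2.36. The narrowest were those of Pck2, 0.13, -0.65, -0.80 and -0.45, and Atf4, 0.35, -0.19, -0.68 and -0.70. By role, the median in line 1 was highest for the transcription factors (1.70) and lowest for the serine and one-carbon enzymes (0.82), and in line 3 it was -2.33 and -0.85 for the same groups. The counting intervals of the ratios excluded 1 for all 33 members in lines 1 and 3, and for 30 and 32 of them in lines 2 and 4. These intervals cover counting error only and are given without a share over all genes, so nothing is read from these counts.

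As a group comparison over 4 wild-type lines, these opposite directions left a median log2 fold change of -0.46 with an SD between lines of 1.28. edgeR called 0 members (background 0%) with 1, Atf5, at an unadjusted p under 0.05 (background 3.8%), and DESeq2 called 1, Atf5 (background 0.0732%). With the lines paired by a replicate block, 1 member was called, Atf5 (background 0.346%), and 3 were at an unadjusted p under 0.05 (background 10.3%). Without wild-type line 1, the block gave 19 members called, all lower (background 4.15%), and a median of -1.22, and without the block it gave 0 called, 23 at an unadjusted p under 0.05 (background 8.85%) and a median of -1.38. Since this contrast chose the members, nothing is read from these counts. The block gave 0 called without wild-type line 2 (background 0%), line 3 (0.0698%) or line 4 (0.212%).

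**Figure D4:**
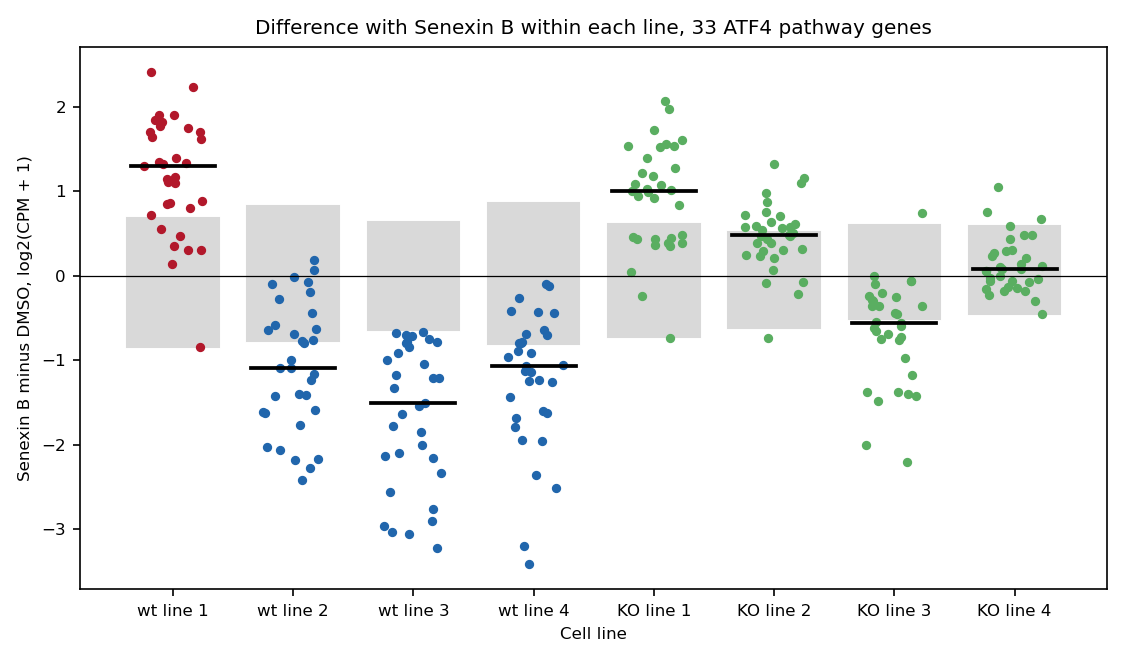
Senexin B minus DMSO on the log2(CPM + 1) scale within each line; each point is 1 of the 33 tested members, the black bar is their median and the grey box spans the 5th to 95th percentile of all 14164 genes. Wild-type line 1 (red) has a median of 1.29, wild-type lines 2 to 4 (blue) of -1.09, -1.51 and -1.07, and the Cdk8 Δ/Δ (KO) lines (green) of 1.00, 0.48, -0.57 and 0.08.

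The Cdk8 Δ/Δ lines also differed in direction from line to line. The choice did not turn on these lines, but it was made with earlier results of these data known. With Senexin B, 31 of 33 members were higher in line 1, 16 of them over 2-fold (1.21% of all genes), with a median of 1.00. In line 2, 29 were higher (46.8% of all genes), 3 of them over 2-fold (0.657%), with a median of 0.48. In line 3, 32 were lower, 8 of them over 2-fold (0.6%), with a median of -0.57. In line 4, 20 were higher and 13 lower, with a median of 0.08, close to that of all genes (0.00). The sequence of higher in lines 1 and 2 and lower in line 3 was met by 27 of 33 members and by 14.5% of genes. This sequence follows the members' own medians in these lines and leaves out line 4, so nothing is read from the count.

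Single members showed the same order. Nupr1 differed by 2.07, 0.75, -1.43 and -0.30 in Cdk8 Δ/Δ lines 1 to 4, Ddit3 by 1.97, 0.58, -0.69 and 0.12 and Asns by 0.99, 0.57, -0.65 and 0.13. Slc7a3 departed from it in line 4, with 1.53, -0.09, -2.21 and 1.04, at a level under 10 CPM in both libraries of that line. Atf4 differed by 0.48, 0.28, -0.28 and -0.15, less than these 3 genes in lines 1 to 3. Over the 4 lines, the median log2 fold change was 0.37, with 31 members above 0 (51.5% of all genes), and edgeR called 0 members (background 0%) with 0 at an unadjusted p under 0.05 (background 1.83%). DESeq2 also gave 0 and 0 (backgrounds 0% and 1.15%). With the replicate block, 0 were called (background 0.0527%) and 4 were at an unadjusted p under 0.05 (background 10.3%): Slc7a11 (0.76 ± 0.24), Atf5 (-0.69 ± 0.25), Stc2 (0.81 ± 0.30) and Sesn2 (0.53 ± 0.22), with edgeR adjusted p from 0.364 to 0.476. Leaving out line 3 raised that last count to 18 (background 9.14%), and leaving out lines 1, 2 and 4 gave 1 (11.2%), 0 (7.22%) and 3 (7.7%). In the fit without the block the median was 0.66 without line 3 and 0.03 without line 1.

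The interaction, which asks whether the Senexin B difference was the same in both genotypes, contains the wild-type contrast that chose the members, so nothing is read from its counts either. Its median over the members was 0.84 (log2, Cdk8 Δ/Δ minus wild type), 32 of 33 were above 0 (49.7% of all genes), and edgeR called 0 (background 0%) with 0 at an unadjusted p under 0.05 (background 0.473%). DESeq2 called 0, with 1 at an unadjusted p under 0.05 (background 0.371%). With the replicate block 4 members, Pck2, Ddit4, Atf5 and Trib3, were at an unadjusted p under 0.05 (background 3.24%). Without wild-type line 1, this count was 32 with the block (background 13.1%, 0 called) and 20 without it (background 3.05%). It was 9 with the block and without Cdk8 Δ/Δ line 3 (background 3.85%).

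The members moved with each other across lines. Over the 8 lines, the Pearson correlation of the within-line differences was above 0 for all 528 pairs of the 33 members, with a median of 0.91 and a lowest value of 0.46. Over the 16 libraries the median correlation of their levels was 0.71. These are descriptions over points that share libraries and lines, and 4 of the 8 lines are the wild-type lines whose opposite directions chose the members, so positive correlations were in part fixed by the choice. The correlation of the other genes with the members' median over the same 8 lines had a median of 0.05 (8713 genes). This is another measure than the correlation of pairs. Against the median of the other members it ran from 0.69 (Atf5) to 0.99 (Gpt2) for the members, a gap that was also in part fixed by the choice. The members closest to the median of the others in level were Slc6a9 (0.97), Atf3 (0.96), Nupr1 (0.95) and Ppp1r15a (0.95), and the farthest were Psat1 (0.32), Pck2 (0.41) and Slc7a11 (0.43).

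Outside the list, the 10 genes whose within-line differences were most like the members' median over the 8 lines, among 8713 other genes with a mean of at least 10 CPM, were Mib2, Slc38a7, Atf1, Vegfa, Mtfr1, Slc1a4, Recql4, Aldh18a1, Ghitm and Erlec1, with Pearson correlations from 0.986 to 0.998. Vegfa, Slc1a4 and Aldh18a1 are also on the list of further known ATF4 targets described below. A correlation over 0.9 was reached by 330 genes (3.79%). Mib2, a ubiquitin ligase, differed by 1.63, -1.12, -1.63 and -1.24 in wild-type lines 1 to 4 and by 1.21, 0.79, -0.48 and 0.33 in the Cdk8 Δ/Δ lines. Slc38a7, an amino acid carrier, differed by 1.44, -0.73, -1.31 and -0.93 and by 1.18, 0.46, -0.53 and 0.27. Erlec1 has a similar shape at a smaller size, from 0.36 in wild-type line 1 to -0.32 in line 3.

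Other genes of the pathway were described by lists written with earlier results known. For the 13 eIF2 kinases and regulators, which act upstream of ATF4, the median lay between -0.11 and 0.16 in all 8 lines. Single genes moved further. Impact differed by -0.75, -0.74, 0.18 and -0.61 in wild-type lines 1 to 4, and Eif2ak2 by -0.66, -0.20, 0.45 and 0.49. The wild-type pattern was met by 2 of 13 (12.5% of all genes). With DMSO 2 of 13 were lower and 11 higher in the Cdk8 Δ/Δ lines (49.7% and 50.3% of all genes). Their median was 0.05, with 0 called (background 0.00759%) and 1 at an unadjusted p under 0.05 (background 5.32%). The most variable were Impact, Eif2s1 and Eif2ak2, with SDs of 0.57, 0.41 and 0.37 over the 16 libraries. The 20 cytosolic aminoacyl-tRNA synthetases, which charge tRNA, leaned the way of the members at a smaller size. Their median difference was 0.69 in wild-type line 1 and -0.39, -0.51 and -0.27 in lines 2 to 4. It was 0.58, 0.25, -0.19 and -0.06 in the Cdk8 Δ/Δ lines. The wild-type pattern was met by 12 of 20 (12.5% of all genes). Lars differed by 0.89, -1.15, -0.75 and -0.67 in wild-type lines 1 to 4, Eprs by 0.86, -1.44, -0.48 and -0.40, and Iars by 0.71, -0.69, -0.46 and -0.24. With DMSO 15 of the 20 were lower in the Cdk8 Δ/Δ lines (49.7% of all genes). Their median was -0.29, with 0 called and 3 at an unadjusted p under 0.05 (backgrounds 0.00759% and 5.32%).

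Of 18 further known ATF4 targets, 15 passed the filter, with medians of 0.67, -0.61, -0.61 and -0.45 in wild-type lines 1 to 4 and of 0.49, 0.22, -0.23 and -0.05 in the Cdk8 Δ/Δ lines. The wild-type pattern was met by 9 of the 15 (12.5% of all genes), counting Nars, which is also among the synthetases. With DMSO 12 were lower in the Cdk8 Δ/Δ lines (49.7% of all genes). Their median was -0.29, with 0 called and 2 at an unadjusted p under 0.05 (backgrounds 0.00759% and 5.32%). Hmox1, which breaks down haem and also responds to oxidative stress, had the widest spread and differed by 1.12, -0.76, -2.19 and -2.36 in wild-type lines 1 to 4. Jdp2 differed by 0.66, -0.58, -2.01 and -1.47, and Pycr1, a proline synthesis enzyme, by 1.06, -0.61, -1.56 and -0.49. Others departed from the pattern. Slc1a5 was higher in every line, and Sqstm1 was lower in every wild-type line. Slc43a1 ran the other way, with -0.54, 0.73, 0.20 and 0.48 in wild-type lines 1 to 4.

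The 12 genes of the endoplasmic reticulum chaperone arm of the unfolded protein response, driven by ATF6 and XBP1 rather than ATF4, had other medians. Their median difference was 0.04 in wild-type line 1 and 0.34, 0.65 and 0.77 in lines 2 to 4. The number higher with Senexin B was 7, 8, 10 and 10 of 12 in these lines (47.4%, 51.3%, 49.3% and 49.1% of all genes). Edem1 was lower in all 4 of them. The wild-type pattern was met by 0 of 12 (12.5% of all genes), and nothing is read from that count. In the Cdk8 Δ/Δ lines the medians were -0.03, -0.18, 0.29 and 0.05. Sdf2l1 was at 16.3, 21.9, 24.9 and 13.4 CPM in wild-type DMSO and at 17.4, 43.6, 60.8 and 43.5 CPM with Senexin B. Hspa5, the main chaperone of this compartment, was at 209, 314, 278 and 173 CPM in wild-type DMSO and at 182, 404, 616 and 433 CPM with Senexin B, and Manf differed by 0.02, 0.88, 0.60 and 0.74. With DMSO 10 of 12 were higher in the Cdk8 Δ/Δ lines (50.3% of all genes), while 32 of the 33 ATF4 pathway members were lower. The median of the 12 was 0.31, with 0 called and 4 at an unadjusted p under 0.05 (backgrounds 0.00759% and 5.32%).

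**Figure D5:**
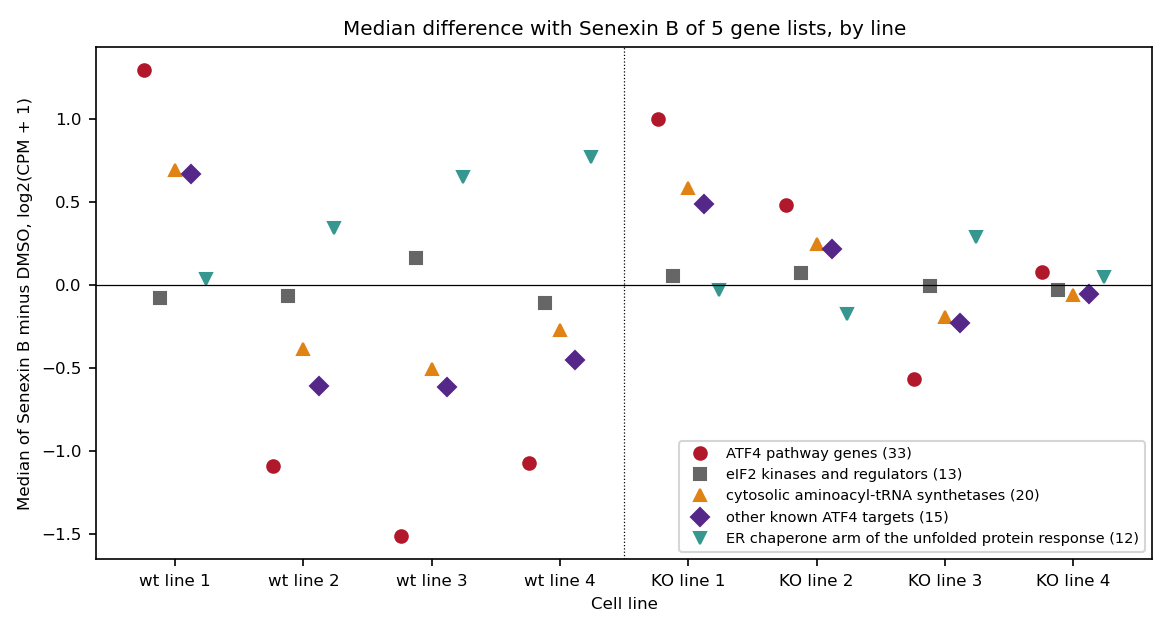
Median difference between Senexin B and DMSO on the log2(CPM + 1) scale for 5 gene lists in each line, with the number of tested genes in brackets. In wild-type lines 2 to 4 the ATF4 pathway genes (red circles) lie between -1.51 and -1.07 and the endoplasmic reticulum chaperones (green triangles) between 0.34 and 0.77; in wild-type line 1 they lie at 1.29 and 0.04.

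Some values carry a limit of counting. Exons of 5 members share over 10% of their bases with other genes in the GENCODE annotation: Slc6a9 (30.2%), Cebpb (20.7%), Aldh1l2 (14.1%), Ddit3 (10.9%, with Mars and Gm4189) and Psph (10.4%), and reads in shared stretches cannot be assigned to 1 gene without strand.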

How the data were processed

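RNA of 16 cultures (8 lines, DMSO and Senexin B) was sequenced as single-end 50-base reads. The deposited values are raw read counts per gene, which the authors made with Trimmomatic, STAR and featureCounts 1.5.1 on GRCm38 with GENCODE annotation. The counting command names no strand option, and reads in exons of more than 1 gene are by default not counted. The members and gene lists were chosen with earlier results of these data known. Groups came from the labels. All 50686 genes (310 without a symbol) entered filterByExpr, TMM scaling and the robust quasi-likelihood test of edgeR 4.0.16 (R 4.3.3), with Benjamini-Hochberg adjustment over all genes tested, and a gene was called at an adjusted p under 0.05 and a change over 2-fold. DESeq2 1.42.0, without this filter on low counts but with its own filter on mean counts in the adjusted p, served as an alternative. The SE of an edgeR log2 fold change was derived from the test, as its absolute value divided by the square root of the F statistic. It is not the spread of the line differences. Fits were tested on simulated counts. Within-line differences used log2(CPM + 1).

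Values were printed in every library for 7 core members, the members with the largest SD over the 16 libraries and those at an unadjusted p under 0.05 between genotypes in DMSO; Atf5 was added after its values were seen. DMSO and Senexin B libraries of the same line deviated together (correlation of deviations from the group means 0.559 to 0.873, other lines -0.555 to 0.21), so a replicate block was used as the paired fit within a genotype. No library pair of 120 agreed within sampling noise. The labels number the lines and do not say that they came from separate mice, so p-values measure the spread between these lines. Counting intervals cover counting error only.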

Additional observations from a re-analysis of the deposited data

Results flagged for a closer look

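In 8 of 132 gene and group combinations (6.06%), 1 library lay far from the other 3 of its group, where chance alone gives about 1 in 20. The share is close to that, and the combinations are not independent because the members move together. Nothing is read from the count, and the cases are listed as a description. Wild-type line 1 with DMSO was that library for 4 genes, each time as the lowest: Eif4ebp1 (208.2 CPM), Mthfd2 (176.8 CPM), Asns (341.1 CPM) and Slc7a5 (521.5 CPM). With Senexin B the same line stood apart as the highest for Aldh1l2 (176.9 CPM). Wild-type line 4 with DMSO was high for Ddit3 (354.3 CPM). Cdk8 Δ/Δ line 4 with DMSO was low for Trib3 (11.71 CPM), and Cdk8 Δ/Δ line 3 with DMSO was high for Shmt2 (819.2 CPM). Whether anything sets these libraries apart was not tested.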

How the results depend on the processing

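Medians over the members kept their sign under the alternatives, except that between genotypes with Senexin B (0.03), which lay between -0.31 and 0.48 when 1 line was left out. The 16 members at an unadjusted p under 0.05 in DMSO and Atf5 with Senexin B in either genotype kept theirs, and Aldh1l2 in DMSO did not (0.10, with the replicate block -0.51). Members called in DMSO between genotypes numbered 1 with DESeq2 (Ddit3), and members at an unadjusted p under 0.05 numbered 9 with all 16 libraries in 1 fit (background 3.8%) and 8 with a replicate block (4.11%), where the numbers do not pair lines across genotypes (correlations -0.15 to 0.43). For Senexin B in wild-type lines, 1 member (Atf5) was called with DESeq2, without the filter and with the replicate block, and 5 (background 2.36%), 3 (2.59%) and 3 (10.3%) were at an unadjusted p under 0.05, with 2 in the fit of all 16 (3.59%). In Cdk8 Δ/Δ lines the replicate block gave 4 (10.3%) and for the interaction 4 (3.24%), with 1 by DESeq2 (0.371%).

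Leaving out 1 line gave 5 to 23 members at an unadjusted p under 0.05 between genotypes in DMSO, 0 to 1 with Senexin B, 1 to 23 for Senexin B in wild-type lines and 0 to 20 for the interaction. With the replicate block these were 1 to 31 in wild-type lines (0 to 19 called), 0 to 18 in Cdk8 Δ/Δ lines and 0 to 32 for the interaction. The block changed no other call. Counts near 0, as for Cbs, Cebpb and Slc7a11, limit what these depths can show, and 4 lines a genotype limit the tests.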

Other observations

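Among the genes most like the members, Vegfa, which drives vessel growth, Slc1a4, a carrier of alanine, serine and cysteine, and Aldh18a1, the first enzyme of proline synthesis, were the most abundant with a role in or near amino acid metabolism or stress, and were picked after their values were seen. All of them also belong to the further known ATF4 targets described above, so they are not a separate observation. Vegfa differed between Senexin B and DMSO by 1.44, -0.77, -1.39 and -0.98 in wild-type lines 1 to 4 and by 1.13, 0.52, -0.39 and -0.12 in the Cdk8 Δ/Δ lines (log2(CPM + 1)). Slc1a4 differed by 1.45, -0.66, -1.13 and -0.50 and by 1.21, 0.87, 0.05 and 0.20, so it was not lower in Cdk8 Δ/Δ line 3. Aldh18a1 differed by 1.00, -0.71, -0.93 and -0.39 and by 0.73, 0.50, -0.12 and 0.11.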
